A study of Mus musculus with 2931 samples.

Results

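Bone morphogenetic protein (BMP) signalling in the endothelium of the developing mouse lung was described through 10 genes. They are the ligand genes Bmp2, Bmp4 and Bmp6, the receptor genes Bmpr2, Acvrl1 and Eng, the inhibitory Smad genes Smad6 and Smad7, and the target genes Id1 and Id3. The genes were chosen by symbol, with earlier results of these data known, and all 10 were found among the 18072 genes of the count table. Shares of members called beside all genes are therefore a description. BMP dimers bring together a type II receptor such as BMPR2 and a type I receptor such as ACVRL1 (ALK1), and endoglin, the product of Eng, is a co-receptor that endothelial cells (EC) carry in large amounts. The receptors phosphorylate Smad proteins that enter the nucleus with Smad4 and raise transcription of the Id genes, and also of Smad6 and Smad7, which then dampen the signal. Loss of BMPR2 function is the main inherited cause of pulmonary arterial hypertension in people, and loss of ENG or ACVRL1 function causes hereditary haemorrhagic telangiectasia. The genes Bmp10 and Gdf2, which encode the main circulating ligands of ACVRL1, were not analysed here.

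Single EC were sorted from mouse lung into plates and sequenced as full-length libraries cut with the Tn5 transposase, without molecular identifiers, so that values are reads and not molecules. The 2931 cells came from 10 mice in 5 groups of 1 female and 1 male each: normal air at E18.5 (before birth) and at postnatal days P1, P7 and P21, plus a hyperoxia group taken at P7. The labels give no genotype and no other treatment. The sort gate and the sequencing run differed in part between groups: 2694 cells came from a CD31 gate and 237 from gates labelled mesench or CD45. The strain and the oxygen level are not given in the sources used here, and a mouse name may stand for 1 animal or for a pool, so p-values measure the spread between mouse names. Cells carry the authors' 10 subtype labels, which were made from the expression of these cells. All reads of 1 mouse and subtype (8 cells or more) were added up and are given as CPM, counts scaled to 1000000 reads of the sum. Cells of 1 mouse were never used as replicates. The capillary lineage means nonproliferative embryonic EC at E18.5 and Car4- capillaries (Early and Late labels together) from P1 on. Car4+ capillaries are the thin gas-exchange capillaries marked by carbonic anhydrase 4. A gene was called where edgeR's quasi-likelihood test gave a Benjamini-Hochberg adjusted p under 0.05 over all genes tested. Counts of members that were higher, were apart between groups or had an unadjusted p under 0.05 stand without the share over all genes. They are a description only.

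Depth was 42095 to 2967985 reads per cell, with a median of 621406. The median per mouse was lowest in the male P7 mouse, at 188609.5 reads. The subtype labels matched their marker lists: the summed CPM of the 8 Car4+ capillary markers was 11510 to 22715 in Car4+ capillaries and at most 3237.5 in any other subtype. The lists for arterial, lymphatic and cycling cells were likewise apart from all other subtypes, while the venous list (2493 to 12155 CPM in venous EC) reached 3420 CPM in lymphatic EC and 2745 CPM in arterial EC I, and the Car4- capillary list overlapped with arterial, venous and proliferative EC. Epithelial, immune and mesenchymal lists stayed at or below 306 CPM in every sum. Sequencing runs were partly shared between groups. Among cells of the CD31 gate, the female E18.5, P1 and P21 mice shared a run and the male E18.5, P7, P21 and hyperoxia mice another, so P7 and P1 have no pair of CD31-gate cells within a run. The other runs that hold several groups mix the gates, such as male P1 cells of the CD31 gate with P7 cells of other gates, and no value within them is given.

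In GRCm38 (GENCODE M21) the genes lie as follows: Bmpr2 at chr1:59763400-59879014, Acvrl1 at chr15:101128522-101145336, Eng at chr2:32646595-32682669, Bmp2 at chr2:133552159-133562885, Bmp4 at chr14:46383520-46390669, Bmp6 at chr13:38345107-38500302, Smad6 at chr9:63953076-64022059, Id1 at chr2:152736251-152737410 and Id3 at chr4:136143497-136145755. Bmpr2, Acvrl1, Eng, Bmp4 and Bmp6 overlap other annotated genes (Fpgs in the case of Eng and Txndc5 in the case of Bmp6), and whether the counting used strand is not given in the sources used here. RefSeq promoters (GRCm38.p6, 250 bases before the start to 50 after it) were matched for 6 members: Bmpr2, Eng, Bmp4, Bmp6, Smad6 and Id3. They were searched on both strands for GTCTAGAC, a palindrome that Smad proteins can bind, for GGCGCC, and for the half-site GTCTG. GTCTAGAC was found in 1 of these 6 promoters, that of Smad6, and in 70 of 32851 promoters of the same length (0.213%). GTCTG was found in the promoters of Eng, Id3 and Bmp6, and 49.6% of all promoters hold it, while GGCGCC was found in that of Bmpr2, and 11.9% of all promoters hold it. The Smad6 stretch is shown because Smad6 was called at birth and holds the palindrome, and the capitals mark the palindrome. It ends at the palindrome, which starts 4 bases before the RefSeq start (chr9:64022056-64022155, minus strand); a match is a description of the letters and not a binding site.
Smad6: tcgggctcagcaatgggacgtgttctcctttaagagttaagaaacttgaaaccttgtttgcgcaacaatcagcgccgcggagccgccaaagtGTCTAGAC

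Across the subtypes in normal air, Bmp4 and Bmp2 had their highest median in venous EC and Bmp6 in Car4- capillaries. Bmp4, a ligand known from lung branching and vessel remodelling, was highest in venous EC at 55.7 to 428 CPM over 7 mice, with a median of 219. Its lowest venous value was close to the highest value of the Car4- capillaries, which ranged from 0 to 56.0 CPM with a median of 21.4. Bmp6, an endothelial ligand also known for iron control in the liver, was highest in Car4- capillaries at a median of 90.4 CPM (0.157 to 219 over 7 mice). The lowest of those values came from 13 cells of the female E18.5 mouse. Arterial EC I came next at a median of 32.6 CPM (0 to 224 over 5 mice, none of them at P21), which overlaps, and Bmp6 was higher there than in the capillary lineage in 2 of 5 mice. In Car4+ capillaries, Bmp6 had a median of 4.45 CPM (0 to 33.9 over 6 mice), and in lymphatic EC it had 2 reads in all 3 mice together. Bmp2, a ligand of heart valve and bone formation, had medians of 16.6 CPM in venous EC (0 to 83.5) and 12.79 CPM in Car4- capillaries (0.157 to 28.3). Bmp2 was at 0 in 4 of 5 mice in arterial EC I and had 3 reads there in all. The 3 highest medians of Bmp2, those of venous, Car4- and proliferative EC, had overlapping ranges over mice, so these ranges do not set their order.

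At equal depth per cell, each ligand gene had a read in a minority of the cells of each subtype, pooled over mice. At full depth the share varied by mouse: Bmp4 had a read in 2 of 11 venous EC of the female E18.5 mouse and in 11 of 13 of the female P21 mouse. After each cell was thinned to 50000 reads, which left out 11 of the 2931 cells, Bmp4 had a read in 43.1% of venous EC (18.2% to 73.9% per mouse), in 8.69% of Car4- capillaries and in 1.45% of Car4+ capillaries. Bmp6 had a read in 37.4% of Car4- capillaries (0% to 54.0% per mouse), in 28.1% of arterial EC I and in 6.52% of Car4+ capillaries. Bmp2 had a read in 14.6% of venous EC and 6.81% of Car4- capillaries, and in 0 of 64 arterial EC I. The gap between subtypes was thus also present at equal depth per cell. Within a sum, single cells could hold most reads: 1 cell gave 97.3% of the Bmp4 reads of venous EC in the male E18.5 mouse, and 1 cell gave all 946 Bmp4 reads of Car4+ capillaries in the female P7 mouse. By contrast, the largest share of 1 cell in the Bmp6 reads of Car4- capillaries at P21 was 4.52% in the female and 9.94% in the male. Of the 102 Car4- capillaries with a Bmp4 read, 62.7% also had a Bmp6 read, and of the 65 venous EC with a Bmp4 read 15.4% did (normal air, all mice). Over all cells of these 2 subtypes, Bmp6 had a read in 37.4% and 9.46%.

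**Figure D1:**
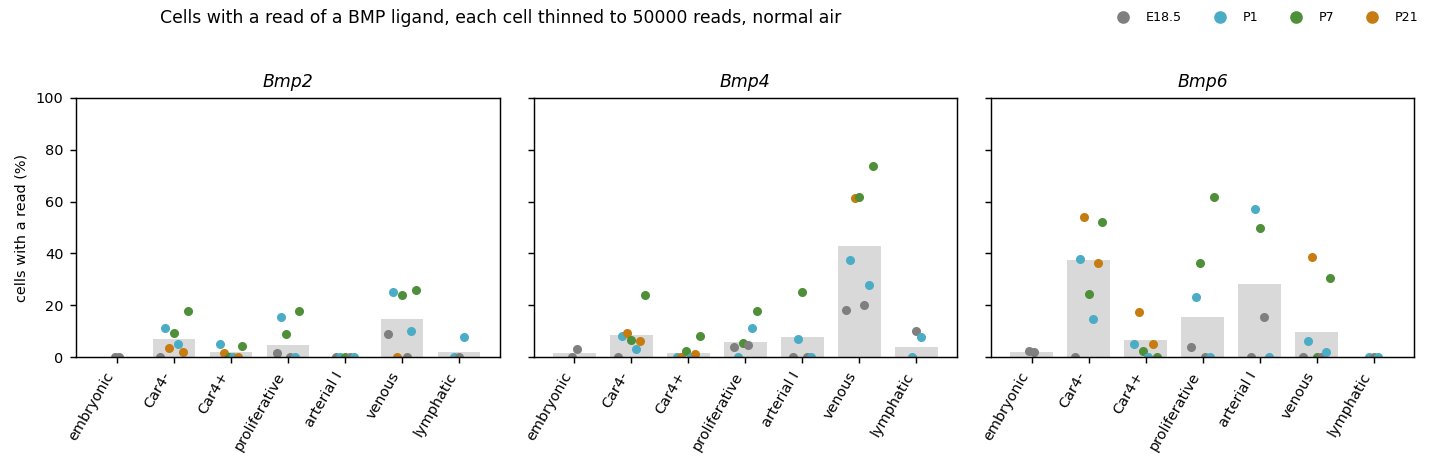
Percent of cells with a read of Bmp2, Bmp4 or Bmp6 by subtype in normal air, each cell thinned to 50000 reads; points are mice coloured by day and bars pool the cells of all mice. Bmp4 stands highest in venous EC (43.1%) and Bmp6 in Car4- capillaries (37.4%).

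The receptor genes were broader. Per exon length, Eng reached a median of 244 CPM per kilobase of exon (RPKM) in Car4- capillaries, Acvrl1, the type I receptor, 154 RPKM, and Bmpr2, the type II receptor with a long transcript, 25.0 RPKM. Acvrl1 was highest in Car4+ capillaries at a median of 1313 CPM (928 to 2005 over 6 mice) and lowest in lymphatic EC at 93.9, 40.7 and 35.9 CPM in the 3 mice. Bmpr2 had medians of 502 CPM in Car4+ and 449 CPM in Car4- capillaries, whose ranges overlap, and 146 CPM in venous EC (87.3 to 643 over 7 mice). Eng had medians between 988 CPM in Car4- capillaries and 368 CPM in lymphatic EC, and each subtype overlapped its neighbour in that order. In lymphatic EC, where Acvrl1 was low, Eng was read in 93.9% of thinned cells and Acvrl1 in 32.7%.

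The inhibitory Smads and the Id genes all had their lowest median in lymphatic EC. Smad6, which blocks type I receptors of the BMP branch, had its highest median in arterial EC I, 139 CPM, close to the 129 CPM of Car4- capillaries. The arterial values were 35.8 and 43.3 CPM at E18.5, then 512 with 139 CPM at P1 and 311 CPM in the 1 usable mouse at P7, so that the 2 embryonic mice were the lowest. Smad7, which blocks both the BMP and the TGF-beta branch, had medians of 72.3 CPM in arterial EC I, 94.1 CPM in Car4- capillaries and 100.2 CPM in venous EC, with overlapping ranges. In lymphatic EC, Smad6 and Smad7 had 3 reads each over 3 mice and 39801165 reads. Id1, an inhibitor of basic helix-loop-helix transcription factors and a direct BMP target, had a median of 522 CPM in arterial EC I, 329 CPM in Car4- capillaries and 72.4 CPM in lymphatic EC. Id3, its close relative, was the member with the highest level per length in every subtype, at medians of 1176 RPKM in arterial EC I and 765 RPKM in Car4- capillaries.

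**Figure D2:**
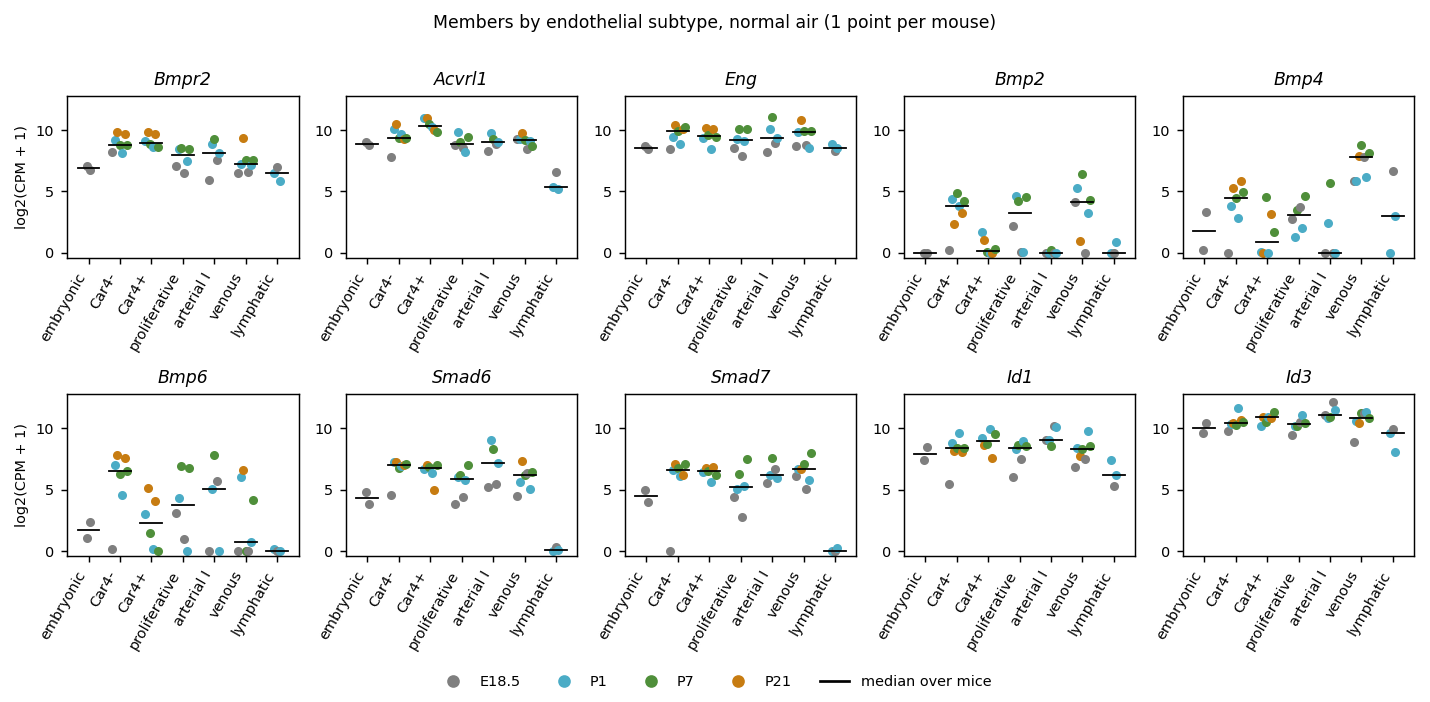
Levels of the 10 members by subtype in normal air, as log2(CPM + 1); each point is the summed reads of 1 mouse, coloured by day, and bars are medians over mice. Lymphatic EC lie near 0 for Smad6, Smad7 and Bmp6 and near the other subtypes for Eng; the Car4- point at E18.5 holds 13 cells.

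The subtypes were compared within mice, with the mouse as a block; since the labels come from the same expression values, the p-values describe size and are no independent test. Against Car4- capillaries of the same mouse, Acvrl1 was higher in Car4+ capillaries in 6 of 6 mice, by 1.40 to 2.18 times, and Bmp6 was lower in 6 of 6. The edgeR log2 differences were 0.99 ± 0.14 (SE, adjusted p = 0.0035) for Acvrl1 and -4.78 ± 0.88 (adjusted p = 0.0146) for Bmp6. These 2 of 10 members were called beside 4.57% of all genes. Bmp2 (-6.54 ± 1.93) and Bmp4 (-5.06 ± 1.79) were lower and Id1 (0.61 ± 0.24) was higher, with adjusted p = 0.0917, 0.151 and 0.195. Bmp2 was called by DESeq2 (adjusted p = 3.5e-07), in thinned cells (0.0243) and by limma (0.0083), and Bmp4 by DESeq2 (4.1e-05). Without the female P7 mouse the adjusted p of Bmp6 was 0.0521. The members' median was -0.01 and that of all genes -0.40 on the log2 scale. Among 47 other pathway genes tested, 2 were called higher and 5 lower. Tgfbr2, the type II receptor for TGF-beta, was higher in 6 of 6 mice (152 to 469 CPM against 54.4 to 196; 1.53 ± 0.28, adjusted p = 0.0145, and 0.051 without the female P1 mouse). The arterial connexin gene Gja4, the Notch target Hey1 and the ligand gene Tgfb2 were lower in 6 of 6 mice, with log2 differences of -7.67, -7.29 and -7.27 and adjusted p = 0.0248, 0.0227 and 0.0275. Each of these 3 calls was lost on leaving out 1 of several mice, for example without the male P7 mouse, where adjusted p was 0.0595, 0.0696 and 0.0535. Fkbp1a, whose product binds type I receptors, was named after its values were seen: it was higher (0.87 ± 0.12, adjusted p = 0.0025) and was called without any 1 of the 6 mice (adjusted p from 0.0045 to 0.0182).

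Against the capillary lineage, Bmp4 was higher in venous EC in 7 of 7 mice, by 4.18 to 287 times, and Bmpr2 was lower in 7 of 7, at 0.253 to 0.856 of the capillary level. The edgeR log2 differences were 3.85 ± 0.64 (adjusted p = 0.0073) and -0.95 ± 0.23 (adjusted p = 0.0476), and 2 of 10 members were called beside 2.9% of all genes. The Bmpr2 value is to be read against the median of all genes, -0.54, which another scaling (RLE) moved by 0.132. Its call was lost under that scaling (-0.81, adjusted p = 0.109), with no filter on low counts (0.0857) and in CD31-gate cells alone (0.0684). It was also lost on leaving out the female E18.5, P1, P7 or P21 mouse or the male P1 or P7 mouse, with adjusted p from 0.0535 to 0.137. Bmp6 (-3.92 ± 1.24) was lower in 7 of 7 mice and Acvrl1 (-0.41 ± 0.17) in 6 of 7, with adjusted p = 0.128 and 0.238. Bmp6 was called lower by DESeq2 (adjusted p = 0.00071), in thinned cells (0.0127) and by limma (0.0333). The members' median was -0.11. Of 46 other pathway genes, 2 were called higher and 2 lower. Fstl1, a secreted follistatin-like BMP antagonist, was higher in 7 of 7 mice (911 to 2291 CPM against 115 to 686; 2.18 ± 0.17, adjusted p = 8.1e-05), as was Mgp, a matrix protein that binds BMPs (252 to 1633 CPM against 0.0104 to 216; 8.29 ± 1.56, adjusted p = 0.0153, and 0.0525 without the male P7 mouse). Tmem100, a target of ACVRL1 signalling, was lower in 7 of 7 (-2.63 ± 0.63, adjusted p = 0.049), and this call was lost without any 1 of 6 mice (adjusted p from 0.0725 to 0.127). In the same venous sums the 12 immediate early genes summed to 8030 to 30364 CPM, against 3712 to 12249 in the capillary lineage; their part in these differences was not tested.

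Arterial EC I had no member called against the capillary lineage with edgeR, beside 0.0938% of all genes, although 4 members passed an unadjusted p of 0.05. The DESeq2 calls were 2 (Bmp2 and Smad6) and limma called 0. Smad6 was higher in 5 of 5 mice, by 1.16 to 3.44 times (1.18 ± 0.43), and Id1 was higher in 5 of 5, by 1.14 to 3.32 times (0.89 ± 0.32). Id3 was higher in 4 of 5 (0.87 ± 0.28). Adjusted p was 0.241 for each of the 3. Bmp2 was lower in 4 of 5 mice and equal at 0 in the other, and its 3 reads were 213-fold below the capillary CPM (95% counting interval 72.9 to 1034). The members' median was 0.25 and that of all genes -1.03, which RLE moved by 0.175. Of 41 other pathway genes, Gja4 was called higher (1470 to 2877 CPM against 99.7 to 768, in 5 of 5 mice; 2.94 ± 0.40, adjusted p = 0.0214), and without the female E18.5, male E18.5 or male P1 mouse its adjusted p was 0.0607, 0.0765 and 0.14.

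Against venous EC, arterial EC I again had 0 of 10 members called with edgeR, beside 0.539% of all genes, and 5 passed an unadjusted p of 0.05. The DESeq2 calls were 2 (Bmp2 and Bmp4) and limma called 1 (Bmp4). Bmp4 was lower in arterial EC I in 5 of 5 mice (-7.55 ± 1.90, adjusted p = 0.167) and Id1 was higher in 5 of 5, by 1.23 to 6.45 times (1.25 ± 0.42, adjusted p = 0.419). Smad6 (1.57 ± 0.71) and Bmpr2 (1.04 ± 0.46) were higher in 4 of 5 mice each, with adjusted p = 0.6 and 0.592. Bmp2 had 3 arterial reads against 3235 venous reads, a ratio of 444 (95% counting interval 152 to 2156). Over the members the median was 0.51 and that of all genes -0.37. Of 38 other pathway genes, Hey1 was called higher (215 to 959 CPM against 0 to 30.7, in 5 of 5 mice; 9.97 ± 1.75, adjusted p = 0.0308), and without the female E18.5, P1 or P7 mouse or the male P1 mouse its adjusted p was 0.154, 0.0872, 0.0517 and 0.0535.

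In lymphatic EC 5 of 10 members were called lower than in the capillary lineage, beside 3.74% of all genes. Acvrl1 was at 0.0378 to 0.219 of the capillary level in 3 of 3 mice (-3.98 ± 0.61, adjusted p = 0.0162) and Id1 at 0.0905 to 0.369 (-2.83 ± 0.48, adjusted p = 0.0229). The other 3 called members had almost no lymphatic reads: Smad6 was 1079-fold lower (95% counting interval 369 to 5233, adjusted p = 0.0215), Bmp6 825-fold (228 to 6814, adjusted p = 0.0093) and Smad7 688-fold (235 to 3336, adjusted p = 0.0099). These intervals cover counting error only. Bmp2 (-6.76 ± 2.82), Bmpr2 (-1.79 ± 0.65) and Id3 (-1.61 ± 0.68) had adjusted p = 0.298, 0.235 and 0.302. Eng was at 0.683 to 0.903 of the capillary level. Bmp4 was higher in lymphatic EC in 2 of 3 mice (-0.47 ± 2.56, adjusted p = 0.963), and Bmpr2 was higher in 1 of 3. Of the lymphatic Bmp4 reads, 1 cell gave all 697 in the male E18.5 mouse and 1 cell gave 88.2% in the male P1 mouse. Bmpr2 was called lower in thinned cells (adjusted p = 0.0149), with limma (0.045) and without the male E18.5 mouse (0.0054). The median change of the members was -3.41 and that of all genes -0.29. Without the male P1 mouse, none of the 5 was called (adjusted p = 0.0523 for Acvrl1, 0.106 for Id1, 0.165 for Smad6, 0.0525 for Bmp6 and 0.0801 for Smad7), and without the female P1 mouse Bmp6 had an adjusted p of 0.254. Of 42 other pathway genes, 5 were called higher and 2 lower. The ligand genes Gdf10 (27.9 to 38.3 CPM, with 5 capillary reads in all) and Tgfb3 (46.0 to 52.9 CPM, with 37 capillary reads) and the receptor gene Neo1 were higher in 3 of 3 mice, with log2 differences of 10.86, 9.65 and 5.62 and adjusted p = 0.0186, 0.0222 and 0.0343. Tmem100 was lower in 3 of 3 (-9.10 ± 0.91, adjusted p = 0.0035). Without the male P1 mouse adjusted p was 0.136 for Gdf10, 0.137 for Tgfb3 and 0.151 for Neo1, and without the female P1 mouse it was 0.0534 for Gdf10 and 0.351 for Neo1.

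For proliferative EC against the capillary lineage 0 of 10 members were called with edgeR, beside 3.17% of all genes, and DESeq2 and limma also called 0. Bmpr2 was lower in 6 of 6 mice, at 0.591 to 0.995 of the capillary level. Acvrl1, Smad6, Smad7 and Id3 were lower in 5 of 6 mice each, and Eng, Bmp4 and Id1 in 4 of 6. Bmp2 was higher in 4 of 6 and Bmp6 in 3 of 6. Id1 (-0.51 ± 0.21), Bmpr2 (-0.37 ± 0.15) and Smad7 (-0.69 ± 0.29) had an unadjusted p under 0.05, with adjusted p = 0.323, 0.282 and 0.328. The members' median, -0.38, lay near that of all genes, -0.28. Of 45 other pathway genes, Tgfbr2 was called lower (18.3 to 65.2 CPM against 54.4 to 196, in 6 of 6 mice; -1.21 ± 0.25, adjusted p = 0.0274), and its call was lost without the female E18.5, P1 or P7 mouse or the male E18.5 or P7 mouse (adjusted p from 0.0531 to 0.142).

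The step from E18.5 to P1 spans birth. In the capillary lineage the subtype label changes with the day, so day and label cannot be told apart. Since the labels come from the same expression values, the p-values there are no independent test. In the capillary lineage all 10 members had a higher mean level at P1, and 4 of 10 were called, all higher: Bmp2, Bmp6, Bmpr2 and Smad6. This stood beside 0.494% of all genes called (74 of 14967). On the log2 scale the median over members was 1.64 and that of all genes 0.02 on the log2 scale. For 8 of the 10 members both P1 mice lay above both E18.5 mice in CPM, and for Bmp4 and Id3 the groups overlapped. With 2 mice a group, genes can lie apart in this way without a change. The share of all genes that did so is not given here. In summed libraries, fewer expressing cells and less RNA per cell cannot be told apart. For the 13 Car4- cells of the female E18.5 mouse, Bmpr2 was inside its P1 range and above both embryonic sums. Bmp2, Bmp6 and Smad6 were below their P1 values in those cells.

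Among the ligands, Bmp2 had 0 and 0.0219 CPM in the female and male E18.5 mice and 19.5 and 12.79 CPM at P1. The embryonic value rests on 3 reads from 1 of 302 cells, so the ratio of 1228 (95% counting interval 420 to 5958) is loose. That interval covers counting error only. At P1, 1 cell gave 69.0% of the male's 1268 reads, which came from 9 of 122 cells, and 1 cell gave 15.8% of the female's. The edgeR log2 change of Bmp2 was 10.30 ± 1.87 (adjusted p = 0.0236). With limma on mean CPM over cells it was 3.94 (adjusted p = 0.193). Bmp6 had 1.07 and 4.04 CPM at E18.5, against 126 and 23.3 CPM at P1 (4.82 ± 0.79, adjusted p = 0.0122). Both ligands were apart between the days, although the P1 mice differed from each other several-fold in Bmp6. Bmp4 had 0.198 and 9.19 CPM at E18.5, against 13.3 and 6.24 CPM at P1, so its groups overlapped.

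Among the receptors, Bmpr2 had 132 and 109 CPM at E18.5, against 577 and 286 CPM at P1 (1.88 ± 0.38, adjusted p = 0.0431). Acvrl1 had 523 and 429 CPM at E18.5, against 1075 and 803 CPM at P1 (1.06 ± 0.40, adjusted p = 0.428). Eng had 409 and 350 CPM at E18.5, against 696 and 477 CPM at P1 (0.69 ± 0.36, adjusted p = 0.569). All 3 receptor genes were apart between the days, and only the type II receptor was called. Smad6 had 26.8 and 13.04 CPM at E18.5, against 149 and 120 CPM at P1 (2.84 ± 0.50, adjusted p = 0.0198). Smad7 had 29.5 and 15.1 CPM at E18.5, against 94.1 and 67.6 CPM at P1 (1.94 ± 0.44, adjusted p = 0.0823, and 0.0015 with DESeq2). Both inhibitory Smads were apart between the days. Id1 had 167 and 349 CPM at E18.5, against 456 and 800 CPM at P1 (1.40 ± 0.47, adjusted p = 0.353), which did not overlap. Id3 had 773 and 1341 CPM at E18.5, against 1288 and 3222 CPM at P1 (1.24 ± 0.51, adjusted p = 0.464), where the female P1 mouse lay below the male E18.5 mouse. The share of thinned cells with a read moved with the sums, from 14.4% and 6.55% to 59.4% and 39.3% for Smad6 and from 2.27% and 1.79% to 37.8% and 14.8% for Bmp6.

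The female E18.5 and P1 mice were sequenced in the same run, and within that run all 10 members were higher at P1. The within-run differences on the log2(CPM + 1) scale were 5.96 for Bmp6, 4.39 for Bmp2, 2.46 for Smad6, 2.14 for Bmpr2, 1.42 for Id1 and 0.77 for Eng. The calls rested on few mice. The Bmp6 change was 4.08 without the female E18.5, 6.14 without the male E18.5, 3.40 without the female P1 and 5.54 without the male P1 mouse. That of Bmp2 was 9.43 and 13.85 without the female and the male E18.5 mouse. Without the female E18.5 mouse no member was called (adjusted p = 0.159 for Bmp2, 0.103 for Bmp6, 0.174 for Bmpr2 and 0.0553 for Smad6). Without the male E18.5 mouse Bmp6 and Bmp4 were called (Bmp4 5.70, adjusted p = 0.0454) and Bmp2, Bmpr2 and Smad6 were not (0.124, 0.282 and 0.201). Without the female P1 mouse Bmp6 had an adjusted p of 0.052 and Bmpr2 of 0.154. Bmp2 was also lost without the female or male P7 mouse (0.0603 and 0.0514), and Bmpr2 without any 1 of the P7, P21 or hyperoxia mice (0.0634 to 0.1). Bmpr2 was not called in CD31-gate cells alone (0.0541) or with the Early label alone (0.0787), and limma called Smad6 alone. Other lists moved between the same sums. The 4 flow-response genes were at 1645 and 2274 CPM at E18.5, against 2601 and 4730 CPM at P1. Klf2 and Klf4 of that list were higher in both P1 mice. Thbd (785 and 1514 CPM against 1233 and 3266 CPM) and Nos3 (118 and 54.4 CPM against 106 and 83.1 CPM) overlapped. The 12 immediate early genes were at 10454 and 12249 CPM against 8772 and 6453 CPM, and the 8 heat shock genes at 1036 and 988 CPM against 861 and 430 CPM. The lymphatic list was at 1243 and 1275 CPM against 2270 and 2954 CPM, most of it from Lyve1 (2056 and 2546 CPM at P1), while its defining genes Prox1 and Ccl21a were at or below 8.02 and 0.0608 CPM. The epithelial list overlapped, at 192 and 72.3 CPM against 83.6 and 94.5 CPM. The part of these lists in the result was not tested.

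Of 47 other pathway genes tested at the same step, 3 were called higher and 0 lower. For these genes the lower of the 2 mice is given first. Tmem100 was at 87.6 and 276 CPM at E18.5, against 2205 and 2745 CPM at P1 (3.86 ± 0.54, adjusted p = 0.0035), with the days far apart. Nbl1, a secreted BMP antagonist, had 3 reads at E18.5 and 12.4 and 17.2 CPM at P1, a ratio of 1167 (95% counting interval 399 to 5662, adjusted p = 0.0394). It was not called without the female E18.5 or male E18.5 mouse, nor without the female P1, male P1 or male P7 mouse (adjusted p from 0.0533 to 0.245).

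**Figure D3:**
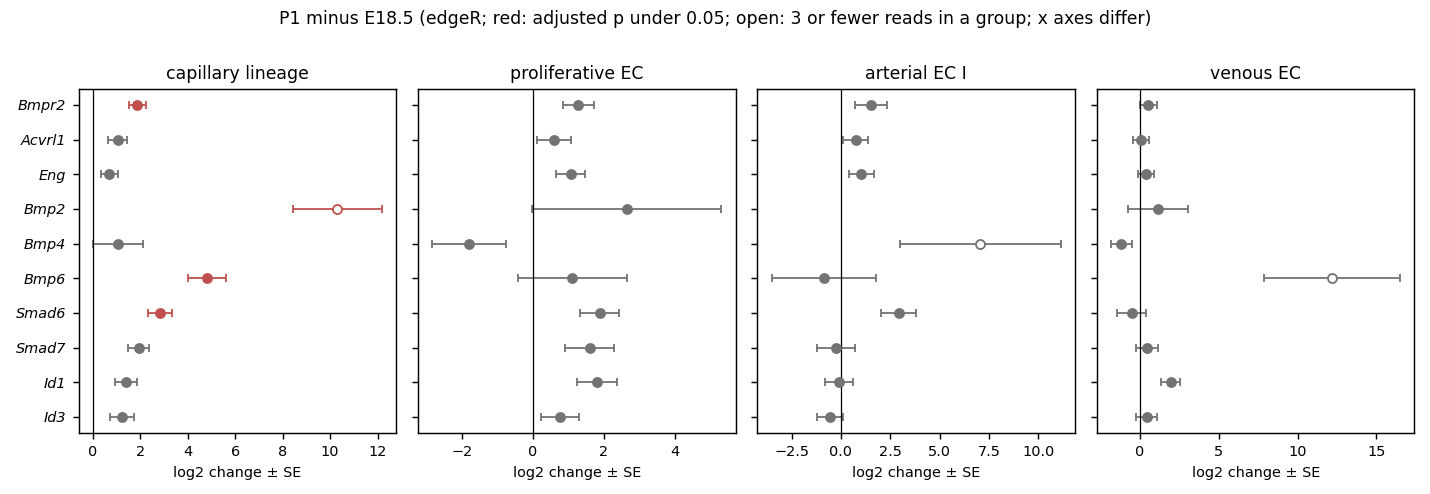
Log2 change of the members from E18.5 to P1 with its standard error from edgeR in the capillary lineage, proliferative EC, arterial EC I and venous EC; red marks an adjusted p under 0.05 and open symbols a group with 3 or fewer reads, whose fitted value is no bound. The 4 red members are all in the capillary lineage, and all 10 members lie above 0 there.

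In the other subtypes no member was called at birth with edgeR, and differences between subtypes at this step were not tested. In proliferative EC 9 of 10 members were higher at P1, 5 had an unadjusted p under 0.05, and 0 were called beside 0% of all genes; DESeq2 called 3 and limma 0. Smad6 went from 13.1 and 19.7 CPM to 62.8 and 53.2 CPM (1.89 ± 0.55, adjusted p = 0.474) and Id1 from 65.3 and 181 CPM to 318 and 490 CPM (1.80 ± 0.56, adjusted p = 0.52). Bmpr2 went from 132 and 88.7 CPM to 341 and 175 CPM (1.28 ± 0.43, adjusted p = 0.559), Eng from 364 and 234 CPM to 611 and 554 CPM (1.06 ± 0.41, adjusted p = 0.625) and Smad7 from 20.2 and 5.77 CPM to 33.1 and 38.8 CPM (1.61 ± 0.69, adjusted p = 0.656). These 5 were picked by their p, and none overlapped between the days. The P1 sums held 13 and 9 cells, and without the female P1 mouse Id1 (2.18, adjusted p = 0.0255) and Bmp6 (-10.51, adjusted p = 0.0166) were called, in a fit with 1 P1 mouse that called 924 of 14408 genes. Over the members the median was 1.19 and that of all genes -0.16, which RLE moved by 0.127. Of 40 other pathway genes 0 were called; Tmem100 went from 100.8 and 158 CPM at E18.5 to 817 and 1383 CPM (adjusted p = 0.153). Mgp had 1 read at E18.5 and 0 and 536 CPM at P1 (adjusted p = 0.332).

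In arterial EC I, where Bmp2 had no reads and 9 members were tested, 0 were called beside 0.0293% of all genes, 1 passed an unadjusted p of 0.05, while DESeq2 called 1 and limma 0. That member was Smad6, from 35.8 and 43.3 CPM to 512 and 139 CPM (2.92 ± 0.88, adjusted p = 1), with no overlap. Bmp4 had 0 reads at E18.5 and 35 at P1, all from 3 of 15 cells of the female, with 0 in the male. Set against 3 reads over the group this is 18.04-fold higher, a bound on counting error only and not on the spread between mice. The median change of the members was 0.75 and that of all genes 0.03. Of 34 other pathway genes 0 were called; Mgp (from 0 and 1.49 CPM to 0 and 523 CPM) and Tmem100 (from 796 and 1086 CPM to 1964 and 2525 CPM) had the smallest p, with an adjusted p of 1.

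In venous EC 8 of 10 members were higher at P1, 2 had an unadjusted p under 0.05 and 0 were called beside 0.0162% of all genes; DESeq2 called 1 (Bmp6) and limma 0. Id1 went from 113 and 180 CPM to 327 and 866 CPM (1.97 ± 0.60, adjusted p = 0.447), with no overlap. Bmp6 had 0 reads at E18.5 and 63.6 and 0.714 CPM at P1, at least 67.8-fold higher against 3 reads over the group (adjusted p = 0.541), and 99.9% of the female's reads came from 1 cell. Bmp4 was at 57.0 and 219 CPM at E18.5, against 55.7 and 73.3 CPM at P1, with overlap. Of the reads behind the 219 CPM, 97.3% came from 1 cell. Without the female E18.5 mouse Bmp2 was called (11.86, adjusted p = 0.0244), in a fit with 1 E18.5 mouse that called 666 of 13548 genes. On the log2 scale the median over members was 0.46 and that of all genes 0.18. Of 38 other pathway genes 0 were called; Gja4 had 0 reads at E18.5 and 56.8 and 144 CPM at P1 (adjusted p = 0.159), and Tmem100 went from 0 and 28.5 CPM to 710 and 762 CPM (adjusted p = 0.398).

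**Figure D4:**
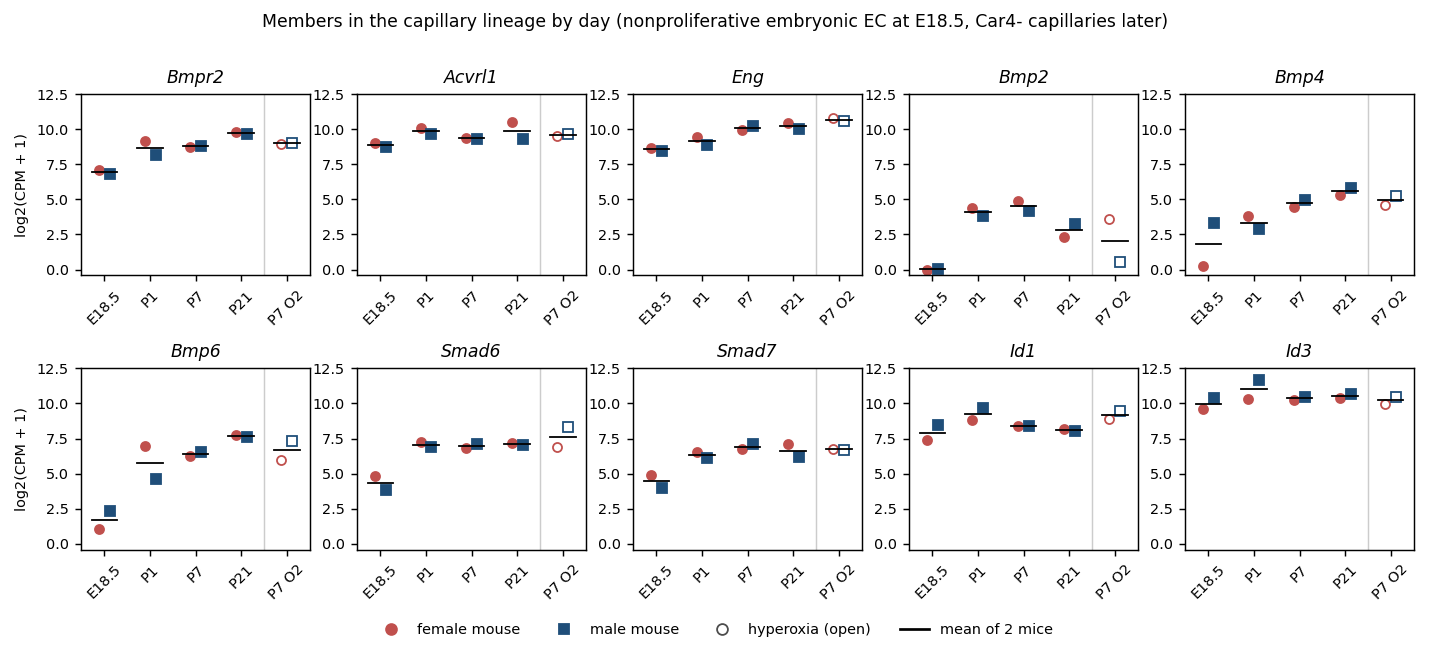
Level of each member in the capillary lineage by day as log2(CPM + 1), with the female mouse as circles, the male as squares, hyperoxia as open symbols and bars as means of 2 mice. Smad6 and Bmp6 step up from E18.5 to P1, Bmpr2 stands highest at P21 and Id1 is highest at P1 in normal air.

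After birth no member of the capillary lineage was called. Between P1 and P7 in Car4- capillaries 0 of 10 members were called beside 0% of all genes, 3 had an unadjusted p under 0.05, and DESeq2 and limma called 0. Eng went to 988 and 1209 CPM (0.82 ± 0.35, adjusted p = 0.42) and Bmp4 to 21.4 and 30.5 CPM (1.35 ± 0.59, adjusted p = 0.427), both above their P1 values without overlap. Id1 went to 329 and 332 CPM (-1.08 ± 0.42, adjusted p = 0.406), below both P1 mice. Of 46 other pathway genes 0 were called; Gja4 went from 268 and 432 CPM to 768 and 1036 CPM, and Gdf15, a stress-induced ligand, from at most 0.0365 CPM to at most 5.34 CPM (adjusted p = 0.385 for each). Between P7 and P21, 0 members were called beside 0.266% of all genes, 2 had an unadjusted p under 0.05, and DESeq2 and limma called 0. Bmpr2 went to 892 and 819 CPM (1.08 ± 0.36, adjusted p = 0.333) and Bmp6 to 219 and 190 CPM (1.41 ± 0.60, adjusted p = 0.44), each above both P7 mice. The label moved with the day: 276 of 322 Car4- cells at P7 carried the Early label and 533 of 540 at P21 the Late label, and its part in these differences was not tested. Late cells had 491 CPM of Bmp6 in the female P1 mouse and 71.9 CPM in the female P7 mouse, against 221 and 193 CPM at P21. Within the run that the male P7 and P21 mice share, these differences were 0.56 and 0.58 on the log2(CPM + 1) scale. In that run Smad6 (-1.28) and Smad7 (-1.47) were lower at P21, while over all cells Smad6 was at 148 and 129 CPM at P21 against 111 and 138 CPM at P7. Of 46 other pathway genes, Mgp was called higher (from 0.855 and 3.78 CPM to 92.3 and 216 CPM; 6.10 ± 0.97, adjusted p = 0.0296), and it was not called without any 1 of the 4 mice of these days (adjusted p from 0.0709 to 0.198). The members' medians were 0.06 for the first interval and 0.28 for the second, beside -0.04 and 0.06 for all genes.

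Car4+ capillaries had no embryonic sum. Between P1 and P7, 0 of 10 members were called beside 0% of all genes, 1 passed an unadjusted p of 0.05, while DESeq2 called 1 (Bmp4) and limma 0. Bmp4 had 1 read at P1 and 964 at P7, a ratio of 947 (95% counting interval 169 to 37424, adjusted p = 0.73), of which 946 came from 1 cell. Of 41 other pathway genes 0 were called; Tmem100 went from 2534 and 2655 CPM to 4599 and 4746 CPM, and Gja4 from 0 and 15.6 CPM to 0 reads (adjusted p = 0.73 for each). Between P7 and P21, 0 members were called beside 0.00814% of all genes, 0 had an unadjusted p under 0.05, and DESeq2 and limma called 0. The largest change was that of Bmp6, from 1.83 and 0 CPM to 33.9 and 15.7 CPM (4.78 ± 2.85, adjusted p = 0.864), with no overlap. Acvrl1 was between 928 and 2005 CPM on all days, and the female mouse was the higher on each. Of 41 other pathway genes 0 were called; Mgp had 2 reads at P7 and 28.9 and 110 CPM at P21, and Bmp7 had 1560 reads at P7, in 1 mouse, and 1 read at P21 (adjusted p = 0.858 for each). The members' medians were 0.25 and 0.35, beside 0.06 and 0.05 for all genes.

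Hyperoxia at P7 changed no member past the threshold in any of the 4 subtypes tested, with edgeR, DESeq2 or limma, and leaving out any 1 mouse gave none either. In Car4- capillaries 0 of 10 were called beside 0.0136% of all genes, and 0 had an unadjusted p under 0.05. Eng had 988 and 1209 CPM in normal air and 1743 and 1524 CPM in hyperoxia (0.55 ± 0.35, adjusted p = 0.963). Id1 had 329 and 332 CPM in normal air and 474 and 711 CPM in hyperoxia (0.82 ± 0.41, adjusted p = 0.887). Bmp2 had 28.3 and 17.3 CPM in normal air and 11.1 and 0.462 CPM in hyperoxia, the largest change of a member there (-2.03 ± 1.16, adjusted p = 0.924). In all 3 the groups did not overlap, and within the run shared by the male mice the differences were 0.58 for Eng, 1.14 for Id1 and -3.98 for Bmp2 on the log2(CPM + 1) scale. One cell gave 73.8% of the Bmp2 reads of the female hyperoxia mouse. Smad6 had 111 and 138 CPM in normal air and 119 and 313 CPM in hyperoxia, which overlapped. Bmpr2 and Acvrl1 were slightly higher, at 482 and 528 CPM and at 735 and 825 CPM. Over the members the median was 0.23 and that of all genes -0.01. Of 46 other pathway genes 0 were called; Mgp went from 0.855 and 3.78 CPM to at most 0.189 CPM (adjusted p = 0.356), and Inhba, an activin subunit gene, from at most 0.616 CPM to 28.5 and 54.4 CPM (adjusted p = 0.863). Lyve1 was at 825 and 732 CPM in normal air and 4023 and 3633 CPM in hyperoxia in the same sums, with Prox1 at or below 0.0411 CPM in these 4 mice.

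**Figure D5:**
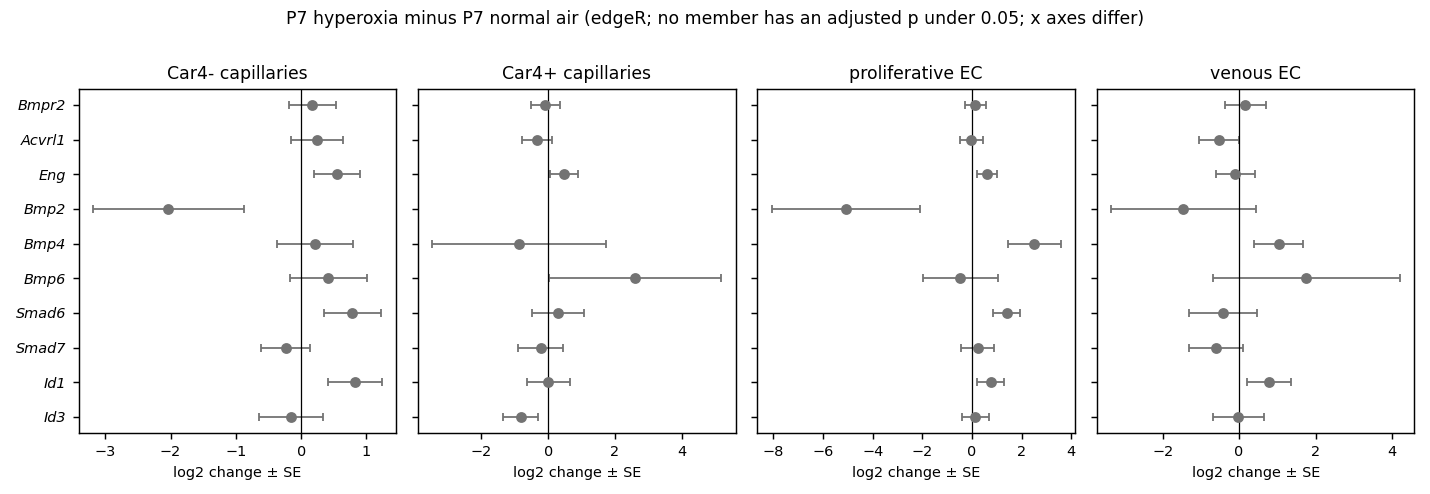
Log2 change of the members under hyperoxia at P7 with its standard error from edgeR in 4 subtypes; Bmp2 in Car4+ capillaries, with 3 reads against 0, is not drawn. No member has an adjusted p under 0.05, and Eng lies above 0 in Car4-, Car4+ and proliferative EC and near 0 in venous EC.

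In the other 3 subtypes 0 members were called beside 0% of all genes in each. In Car4+ capillaries 0 had an unadjusted p under 0.05; Eng had 786 and 685 CPM in normal air and 1234 and 1191 CPM in hyperoxia (0.47 ± 0.42, adjusted p = 0.91), without overlap, but in the run shared by the male mice it was lower (-0.20). Bmp6 had 1.83 and 0 CPM against 11.5 and 0.839 CPM, the largest fitted change there (2.60 ± 2.58, adjusted p = 0.925). In proliferative EC 2 members had an unadjusted p under 0.05: Smad6, with 72.1 and 128 CPM in normal air and 197 and 328 CPM in hyperoxia (1.40 ± 0.54), and Bmp4, with 10.3 and 24.0 CPM against 152 and 44.6 CPM (2.52 ± 1.05). Both had an adjusted p of 1, and neither overlapped. Eng in proliferative EC had 1058 and 1057 CPM against 1411 and 1781 CPM (0.59 ± 0.41), also without overlap. In venous EC 0 members had an unadjusted p under 0.05; Bmp4, the ligand of this subtype, had 428 and 281 CPM in normal air and 585 and 864 CPM in hyperoxia (1.04 ± 0.64, adjusted p = 1), without overlap, while Eng overlapped at 940 and 963 CPM against 1176 and 616 CPM. The largest fitted change in venous EC was that of Bmp6, at 0 and 16.9 CPM against 38.0 and 17.3 CPM (1.76 ± 2.45). The members' medians were -0.15 in Car4+ capillaries, 0.19 in proliferative EC and -0.06 in venous EC, beside -0.06, 0 and 0.01 for all genes.

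Of the other pathway genes 0 were called in these 3 subtypes (41, 40 and 38 tested). In Car4+ capillaries Bmp7 had 1560 reads in normal air and 1 in hyperoxia, and Gja4 had 0 reads in normal air and 7.52 and 30.3 CPM in hyperoxia (adjusted p = 0.731 for each). In proliferative EC Gdf15 went from 0 and 1.56 CPM to 78.2 and 124 CPM, and Mgp from 2 reads to 1.24 and 19.4 CPM. In venous EC Bambi, a decoy receptor of BMP and TGF-beta ligands, went from 128 and 149 CPM to 33.9 and 39.6 CPM, and Fst, the follistatin gene, from 0 to 14 reads. These 4 genes of proliferative and venous EC had an adjusted p of 1.

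The hyperoxia effects in Car4+, venous and proliferative EC were compared with that in Car4- capillaries by an interaction term with the mouse as a block. In these 3 comparisons 0 of 10 members were called beside 0% of all genes in each, with 0, 1 and 0 members at an unadjusted p under 0.05, and DESeq2 and limma called 0 members. The 1 member was Smad6, whose log2 change was lower in venous EC by an interaction of -1.12 ± 0.44 (adjusted p = 1). In proliferative EC the largest fitted interaction was that of Bmp2, -3.76 ± 1.70 (adjusted p = 1), and in Car4+ capillaries Bmp2 had too few reads for a value. In venous EC the largest was that of Bmp6, 3.71 ± 2.76 (adjusted p = 1). The members' medians were -0.47, -0.02 and -0.02, beside -0.04, 0.06 and -0.04 for all genes. Of 42 other pathway genes tested in each, 0 were called. The smallest p belonged to Gja4 (adjusted p = 0.338) and Tgfb2 (adjusted p = 1) in Car4+ capillaries, to Bambi (-3.78 ± 0.61, adjusted p = 0.778) and Inhba (adjusted p = 1) in venous EC, and to Fstl1 (1.07 ± 0.37) and Hey1 (0.91 ± 0.33) in proliferative EC, both with an adjusted p of 1.

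The members' profiles over 48 sums of mouse and subtype were compared with those of 9144 genes by Pearson's correlation of log2(CPM + 1). The sums share mice, libraries and depth, so these values are a description. Smad6 and Smad7 had r = 0.84 with each other, Id1 and Id3 0.71, Bmp6 and Eng 0.75, and Bmpr2 0.73 with Acvrl1 and 0.74 with Eng. Bmp4 was near 0 with both kinase receptors (0.00 with Bmpr2 and -0.06 with Acvrl1), and Bmp2 had 0.45 with Bmp4 and -0.04 with Id1. The 3 most similar genes were Hpgd, Fmo1 and Tmcc2 for Bmpr2 (0.87, 0.86 and 0.85), Pcdh1, Ly6a and Nrp1 for Acvrl1 (0.89, 0.88 and 0.87), and Fmo1, B4galt4 and Tmem50b for Eng (0.78, 0.77 and 0.75). For Smad6 they were Epas1, Smad7 and Nrp1 (0.87, 0.84 and 0.82), for Smad7 Ceacam1, Epas1 and Lims2 (0.89, 0.89 and 0.87), for Id1 Slc9a3r2, Cbfa2t3 and Id3 (0.76, 0.73 and 0.71), and for Id3 Id1, Crip2 and C530043K16Rik (0.71, 0.65 and 0.64). For the ligands they were Mmp2, Gria3 and Hdc for Bmp4 (0.76, 0.75 and 0.73) and Eng, B4galt4 and Wif1 for Bmp6 (0.75, 0.74 and 0.73).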

How the data were processed

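Reads were aligned with STAR 2.5.2b and counted per gene with HTSeq 0.10, per the submitters' processing notes. Those notes name the build GRCh38, a human build, although the cells are from mouse; the annotation is not given in the sources used here. The deposited values are raw counts of reads per gene and cell. Counts were summed per mouse and subtype (at least 8 cells) and tested with edgeR 4.0.16 in R 4.3.3 (TMM, filterByExpr, quasi-likelihood test, Benjamini-Hochberg over all genes), with the mouse as a block between subtypes and in interactions. Alternatives were RLE scaling, DESeq2 1.42.0, limma 3.58.1 on mean CPM over cells, no filter beyond 1 read, cells thinned to 50000 reads, CD31-gate cells alone (2694 of 2931), the Early label alone, sex as a block, no mouse block, and each mouse left out. Totals per cell were 42095 to 2967985 reads. The fits were tested on simulated data. Ratios with 1 to 3 reads in a group carry 95% counting intervals, and a group at 0 was set to 3 reads over the group. Other pathway genes were named where called and at or above 10 CPM, up to 4 for a comparison, and otherwise the 2 with the smallest p. Members were given a test where their unadjusted p was under 0.05 or their change the largest; others given one were chosen after their values were seen. The members and lists were chosen with earlier results of these data known. Sequences are from RefSeq (GRCm38.p6) and positions from GENCODE M21. The genes most similar to Bmp2 are not reported here.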

Additional observations from a re-analysis of the deposited data

How the results depend on the processing

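Of the recomputed log2 changes of members that the naming rule picks, 760 kept direction and side of the threshold, which includes members called in neither fit. Another 38 lost a call and 26 gained one (beside calls given in the report for members outside that rule). The 1 that reversed was the Bmp2 interaction in Car4+ capillaries, -2.92 with edgeR and 2.48 with limma, on 3 or fewer reads in each Car4+ group. DESeq2 called 1 member at birth in arterial EC I, 1 in venous EC and 3 in proliferative EC, 1 in Car4+ capillaries from P1 to P7, 4 in Car4+ against Car4- capillaries, 2 in arterial EC I against the capillary lineage and 2 against venous EC. Limma called 1 member at birth in the capillary lineage and 1 in arterial against venous EC. With no filter 1 was called at birth in venous EC, 1 in venous EC against the capillary lineage and 1 in arterial against venous EC, where thinned cells also gave 1. In venous EC against the capillary lineage, RLE and CD31-gate cells gave 1 each. Leaving out 1 mouse gave 0 to 4 members at birth in the capillary lineage, 0 to 1 in venous EC and 0 to 2 in proliferative EC, 1 to 2 in Car4+ against Car4- capillaries, 1 to 2 in venous EC and 0 to 6 in lymphatic EC against the capillary lineage. Over all genes at birth in the capillary lineage, DESeq2 called 572 and thinned cells 117, against 74 with edgeR. For venous EC against the capillary lineage edgeR called 203 genes higher and 220 lower, RLE 251 and 195, no filter 214 and 177, DESeq2 691 and 1534, and limma 289 and 457. The cause of these differences was not tested. The labels give the groups no shared replicate numbers; with sex as a block the same 4 members were called at birth in the capillary lineage (adjusted p from 0.0192 to 0.0399). With 2 mice a group, small changes were not detectable.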

Other observations

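Some sums entered no comparison. The 9 cells labelled arterial EC II of the male P1 mouse had 257 CPM of Smad6, 895 CPM of Id1 and 2892 CPM of Id3, and Bmp2 was at 0. The 13 Car4- cells of the female E18.5 mouse had 22.97 CPM of Smad6, 0.157 CPM of Bmp6 and 43.9 CPM of Id1, and Smad7 was at 0. Bmpr2 was at 301 CPM in the same cells, inside its P1 range of 286 to 577 CPM and above both embryonic sums. The 14 lymphatic EC of the female hyperoxia mouse at P7 had 17.3 CPM of Smad6 and 10.4 CPM of Smad7, with Acvrl1 at 62.7 CPM and Eng at 778 CPM. After thinning, Smad7 had a read in 1 of these 14 cells. The 3 normal-air lymphatic sums, with 3 reads each of Smad6 and Smad7, were from E18.5 and P1, so day and hyperoxia cannot be told apart.

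Within cells of normal air thinned to 50000 reads, 92.5% of Car4- capillaries with an Id1 read also had an Id3 read (608 of 657 cells), and 54.3% of those with a Smad6 read had a Smad7 read. Over all Car4- capillaries, 83.2% had an Id3 read and 40.3% a Smad7 read. In venous EC 0 of 21 cells with a Bmp2 read had a Bmp6 read, and in Car4- capillaries 37 of 80 did. Over all cells of these subtypes a Bmp6 read was found in 9.46% of venous EC and 37.4% of Car4- capillaries.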
